A study of Mus musculus with 3 samples.

Results

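Small nucleolar RNAs (snoRNAs), small Cajal body RNAs (scaRNAs) and small nuclear RNAs (snRNAs) are short non-coding RNAs that work mostly in the nucleus, and this account describes the Ago2 peaks that lay over their genes in N2A cells, a mouse neuroblastoma line. Peaks were chosen by position, strand and width: a member was a deposited peak of 200 nt or less that shared 15 nt or more with, and the strand of, a gene of type snoRNA, scaRNA or snRNA in GENCODE mouse M21. There were 1184 such peaks among 2039384 in the 3 libraries, and they lay over 680 of 2941 annotated genes. The cells were untreated. They were crosslinked with ultraviolet light once at 400 mJ/cm2 and 2 further times at 200 mJ/cm2, and RNA was recovered with an antibody against Ago2 by HITS‐clip. All samples formed 1 group, so comparisons were between genes, strands and libraries, and there was no second condition. The sources used here do not say whether the 3 samples came from separate cultures, so the spread between them may be technical. The table gives peak intervals and no read counts, so the depth behind a peak is not known.

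C/D box snoRNAs guide the methylation of ribose in ribosomal and other RNAs, and carry a C box near the 5′ end and a D box near the 3′ end. H/ACA box snoRNAs guide the conversion of uridine to pseudouridine, fold into a pair of hairpins and end in an ACA shortly before the 3′ end. scaRNAs carry such boxes and modify snRNAs in Cajal bodies, while the snRNAs themselves are the RNA core of the spliceosome. In mammals most snoRNAs are cut out of introns of host genes. Some are further cut to fragments that Argonaute proteins can load, and a few loci are annotated both as a snoRNA and as a microRNA (miRNA).

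The sequences below show where the peaks lay. Deposited peaks appear to carry 30 nt of padding at either end, and a peak without these outer parts is called its central part here. The first set gives 1 C/D box, 2 H/ACA box, 1 scaRNA and 2 snRNA genes, the latter with letters typical of U6, chosen to show how the position differed between classes. All are in GRCm38, printed 5′ to 3′ on the strand of the gene, and capitals mark the longest stretch inside central parts of all 3 libraries.
Gm23130: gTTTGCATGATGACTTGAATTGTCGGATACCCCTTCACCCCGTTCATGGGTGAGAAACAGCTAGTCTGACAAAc
Gm22620: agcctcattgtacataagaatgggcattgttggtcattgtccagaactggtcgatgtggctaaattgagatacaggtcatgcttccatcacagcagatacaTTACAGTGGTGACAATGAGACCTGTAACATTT
Gm24455: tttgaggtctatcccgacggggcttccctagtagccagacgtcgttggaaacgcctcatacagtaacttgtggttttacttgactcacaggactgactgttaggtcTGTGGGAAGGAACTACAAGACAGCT
Mir1839: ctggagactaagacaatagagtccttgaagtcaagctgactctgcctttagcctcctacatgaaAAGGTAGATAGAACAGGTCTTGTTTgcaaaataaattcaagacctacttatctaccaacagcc
Gm23293: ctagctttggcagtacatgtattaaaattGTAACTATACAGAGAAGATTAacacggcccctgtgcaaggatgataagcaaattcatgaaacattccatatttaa
Gm22796: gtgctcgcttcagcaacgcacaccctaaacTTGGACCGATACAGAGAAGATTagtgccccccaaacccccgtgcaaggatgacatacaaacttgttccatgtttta
Gm23130, which RefSeq calls SNORD101, lies at chr10:23786470-23786543 (minus strand), Gm22620 (SNORA1) at chr9:15315189-15315321 (plus) and Gm24455 (SNORA18) at chr9:15313802-15313932 (plus). The scaRNA gene Mir1839 lies at chr7:81529855-81529981 (plus), Gm23293, a U6 copy, at chr11:79595165-79595268 (plus) and Gm22796, an snRNA gene with no family name, at chr1:135353717-135353822 (minus). In the C/D box gene, 1 of 3 of its class with over 90% of its length common to all libraries, the capitals run over nearly the whole RNA, in the H/ACA box genes they run to its 3′ end, in the snRNA genes they sit in or before the middle, and in Mir1839 they begin with the mature miRNA. The C/D box gene is also shorter, with 74 nt against 133 and 131 nt for the H/ACA box genes. The part of gene length in the difference between classes was not tested.

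The second set gives 8 of the 10 mature miRNAs (RefSeq, GRCm38) that were covered by central parts in at least 2 libraries, among the 14 that lie inside genes of these types with a peak in all 3 libraries. Left out were mmu-miR-677-3p and mmu-miR-6516-3p. Relative to the first nucleotide of the miRNA, central parts began at -6 and -8 nt over mmu-miR-677-3p (replicates 1 and 3). Over mmu-miR-6516-3p they began at -6 and -42 nt (replicates 1 and 2). Capitals mark the seed, bases 2 to 8. No seed was shared among these 14, and mature miRNAs in other genes of these types were not examined singly.
mmu-miR-1839-5p: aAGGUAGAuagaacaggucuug
mmu-miR-1843b-3p: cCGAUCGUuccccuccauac
mmu-miR-1843a-3p: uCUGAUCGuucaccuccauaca
mmu-miR-664-3p: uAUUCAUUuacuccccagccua
mmu-miR-6516-5p: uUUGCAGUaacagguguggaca
mmu-miR-677-5p: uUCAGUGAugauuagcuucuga
mmu-miR-3068-5p: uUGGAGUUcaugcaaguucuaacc
mmu-miR-3068-3p: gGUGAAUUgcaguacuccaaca
On the plus strand, mmu-miR-1839-5p lies at chr7:81529919-81529940, mmu-miR-1843b-3p at chr1:159340400-159340419, mmu-miR-664-3p at chr1:185243012-185243033, mmu-miR-6516-5p at chr11:117077370-117077391 and mmu-miR-677-5p at chr10:128085291-128085312. On the minus strand, mmu-miR-1843a-3p lies at chr12:80391615-80391636, mmu-miR-3068-5p at chr12:87437724-87437747 and mmu-miR-3068-3p at chr12:87437685-87437706.

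The libraries held 711377, 498071 and 829936 peaks in replicates 1, 2 and 3, and 422, 294 and 468 of them were members. Per 10000 peaks of 200 nt or less, that was 6.21, 6.34 and 5.91 members, or 6.15 ± 0.218 (mean ± SD, n = 3). The number of members therefore followed the number of peaks in a library. A peak lay over 377 genes in replicate 1, 264 in replicate 2 and 377 in replicate 3 (339 ± 65.2, n = 3).
On the opposite strand of the same genes there were 60, 38 and 77 peaks, 6.95 ± 0.833 times fewer (n = 3), over 59, 39 and 71 genes. Peaks of 86 to 200 nt lay over 289, 171 and 298 genes on the same strand and over 19, 6 and 30 on the opposite strand. For peaks of at most 85 nt the numbers were 105, 103 and 101 against 40, 33 and 42. Up to 200 nt the excess of the same strand was thus greater for the wider peaks in each library. Peaks of over 200 nt, which are not members, lay over 44, 90 and 71 genes on the same strand and 44, 77 and 55 on the opposite strand.

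In all 3 libraries 82 genes had a peak, 58 of them snoRNA, 7 scaRNA and 17 snRNA genes. They were 2.79% of the genes. On the opposite strand 1 gene, Gm25776, met the same rule (0.034%). Windows of the same length placed 100 nt upstream of the genes gave 0.343%, and windows 100 nt downstream gave 0.239%. Of the annotated miRNA genes, which Ago2 is known to bind through their products, 6.72% met it. A further 174 genes had a peak in exactly 2 libraries and 424 in 1, so most genes with a peak were not shared by the libraries. Without replicate 2 the number in all remaining libraries was 174, and without replicate 3 it was 124. At the limits of the rule, 16 peaks overlapped a gene by 15 to 17 nt and 17 by 12 to 14 nt, while 9 members came within 9 nt of the width limit and 2 peaks over such genes exceeded it by at most 10 nt.

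**Figure D1:**
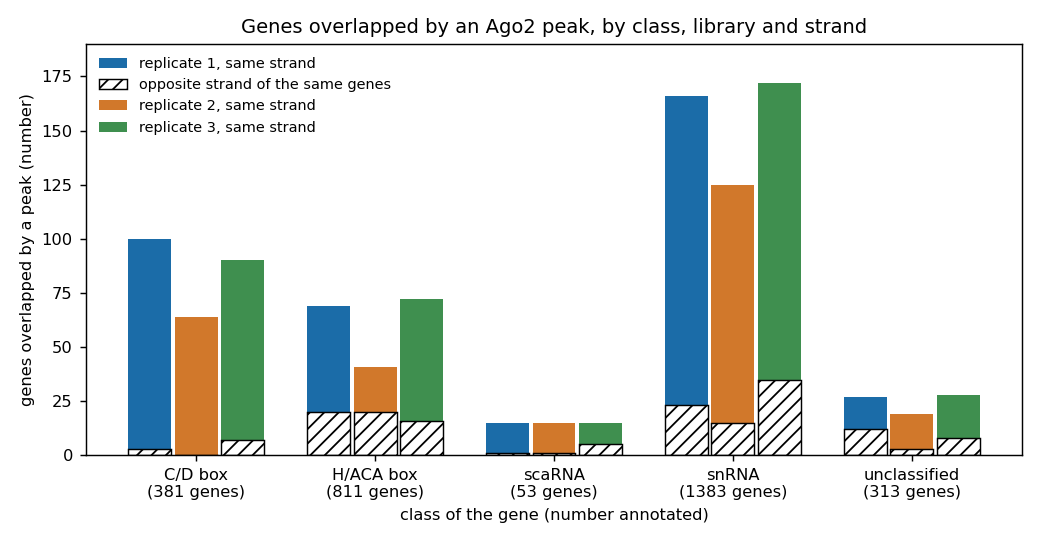
The bars give the number of genes overlapped by a peak of 200 nt or less in each replicate, by class of gene with RefSeq names used for the class; hatched bars give the same count on the opposite strand. snRNA genes are the most numerous, with 166, 125 and 172 against 23, 15 and 35 on the opposite strand, and C/D box genes have 100, 64 and 90 against 3, 0 and 7.

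C/D box and scaRNA genes were overlapped most often. Genes were put in a class by their symbol, or by sequence match to a gene with such a symbol, which left 945 of them unclassified. Of 167 C/D box genes 57, 38 and 49 had a peak in replicates 1, 2 and 3, or 34.1% (95% Wilson interval 27.4 to 41.6%), 22.8% (17 to 29.7%) and 29.3% (23 to 36.6%). Their mean was 28.7 ± 5.71% (n = 3). Intervals cover only the counting of genes.
Of 53 scaRNA genes 15 had a peak in each library, or 28.3% (18 to 41.6%). Of 393 H/ACA box genes 33, 20 and 38 had one (7.72 ± 2.36%), with library intervals between 3.32 and 13%. Of 1383 snRNA genes 166, 125 and 172 had one (11.2 ± 1.85%), with intervals between 7.64 and 14.3%. The intervals of the C/D box genes lay above those of the H/ACA box and snRNA genes in each library.
With classes taken from RefSeq names as well, which was chosen after the data were seen, the share was 22.2 ± 4.88% of 381 C/D box genes and 7.48 ± 2.11% of 811 H/ACA box genes. The genes with a peak in all libraries were then 32 C/D box, 17 H/ACA box, 9 scaRNA and 17 snRNA genes and 7 others.

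Copies of a few RNAs account for many genes without a peak. The brain-specific C/D box RNAs Snord115 and Snord116 are encoded in tandem arrays, with 131 and 69 genes here. A peak lay over 5, 0 and 8 of the Snord115 copies and over 0, 0 and 1 of the Snord116 copies in replicates 1, 2 and 3. Without these arrays 44.2 ± 8.58% of 181 C/D box genes had a peak in a library (n = 3), and 17.7% had one in all. SNORA17 had 443 genes by RefSeq name, of which 6, 4 and 4 had a peak. Without them 15.2 ± 4.52% of 368 H/ACA box genes had one. Genes with a near copy (at least 95% identity) made up 7 of the 82 genes with a peak in all libraries and 798 of all 2941. Among the 598 genes with a peak in 1 or 2 libraries they were 173, so their share was low only among genes with a peak in all libraries. How the deposited peaks treated reads that fit several copies is not given in the sources used here, so copies are uncertain and are given as groups.

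**Figure D2:**
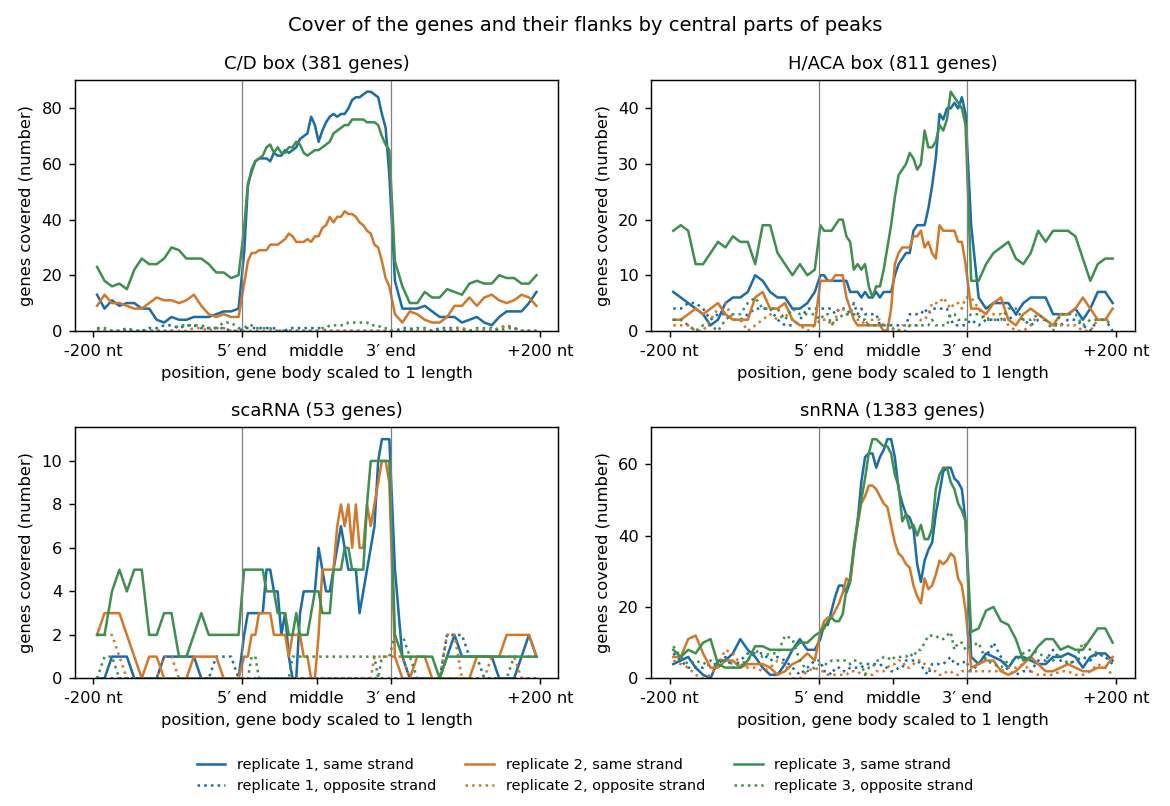
Each line gives, for 1 replicate, the number of genes whose central parts cover a position along the gene (scaled from the 5′ to the 3′ end) and the 200 nt on either side, with dotted lines for the opposite strand. C/D box genes, counted together, are covered from end to end, H/ACA box and scaRNA genes mainly near the 3′ end, and snRNA genes at 2 places.

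C/D box RNAs were covered along the whole gene when all were counted together, while single RNAs were often covered in part. Over all 381 C/D box genes by RefSeq class, each cut into 40 equal steps, the 10 steps nearest the 5′ end were covered in a mean of 57.3, 27.8 and 59.6 genes and the 10 nearest the 3′ end in 80.1, 31 and 72.9. In the 32 C/D box genes with a peak in all libraries, central parts began a median of 5, 20.5 and 2 nt inside the 5′ end in replicates 1, 2 and 3. They ended a median of 0 nt from the 3′ end in replicate 1, at -7.5 nt, which is before it, in replicate 2 and 4 nt beyond it in replicate 3. Across all C/D box genes the cover rose to 86, 43 and 76 genes inside the gene, and fell to at most 13, 13 and 26 genes at 100 nt or more upstream. Edges of single peaks varied around these medians. In the 32 genes the 5′ edge lay within 5 nt of the annotated end in 48.6%, 36.1% and 46.5% of peaks and the 3′ edge in 62.2%, 36.1% and 25.6%, and both did in 11 of 37, 2 of 36 and 5 of 43 peaks. A median of 45.6% of the gene lay in central parts of all libraries, 3 genes had over 90%, and 29 of the 32 had any common stretch.
Snord13, which guides acetylation in ribosomal RNA, had the largest common cover: 98.1% of its 104 nt lay in central parts of every library. Its central parts ran from 2 to 138, -1 to 106 and 0 to 129 nt, measured from the 5′ end of the gene, in replicates 1, 2 and 3. Gm23130, which overlaps an exon of a transcript of the ribosomal protein gene Rps12, was covered by 97.3%, 98.6% and 100% in replicates 1, 2 and 3, with 97.3% common to all. Gm26287 (SNORD11B) and Snord11, both hosted by Nop58, had 93.8% and 89.3% in common. These are neighbouring RNAs within a gene for a core protein of the C/D box particle.
The other C/D box genes named by the rule were Snord87 (67.8% in common), Snord52 (62.1%), Snord104 (54.3%) and Snord4a (53.5%). For Snord52 the cover was 100%, 62.1% and 100% in the 3 replicates, and for Snord104 it was 100%, 54.3% and 100%. In both, replicate 2 set the common stretch.

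Over all 811 H/ACA box genes by RefSeq class, the cover was greater toward the 3′ end, with a mean of 8.8, 7.8 and 17.6 genes over the 10 steps nearest the 5′ end and 37.6, 16.2 and 38.1 over the 10 nearest the 3′ end. In the 17 H/ACA box genes with a peak in all libraries, central parts began a median of 94, 71 and 67 nt inside the 5′ end, and 81.8%, 73.7% and 62.5% of peaks were centred in the 3′ part beyond the middle of the gene. By the classes from symbol or sequence (9 genes) the shares were 70%, 55.6% and 50%, and in the 32 C/D box genes they were 73%, 58.3% and 62.8%, so this share did not set the classes apart. Over genes with a peak in any library, the mean centre of peaks, as a share of gene length from the 5′ end, differed between C/D box and H/ACA box genes (C/D minus H/ACA) by -0.0551, -0.110 and -0.0999 in replicates 1, 2 and 3. The mean difference was -0.0883 ± 0.0292 (n = 3; exact sign-flip permutation test, two-sided, p = 0.25, the smallest that 3 libraries allow). With RefSeq classes it was -0.111 ± 0.00768, and C/D box genes were lower in 3 of 3 libraries under both classings. Over genes with a peak in all libraries it was -0.0893, -0.0831 and -0.131 with RefSeq classes, but -0.0164, 0.0675 and -0.0827 by symbol or sequence, where replicate 2 had the opposite sign.
Gm22620 (SNORA1), in Taf1d, had the most in common, 46.6% of its 133 nt, with the longest stretch from nucleotide 102 to the 3′ end. Gm24455 (SNORA18), in the same host, had 36.6% in common, with the longest stretch from nucleotide 107 to the end. Its central parts included 64 to 88 and 106 to 157 in replicate 1, 63 to 89 and 106 to 131 in replicate 2, and 65 to 133 in replicate 3, so a first block in its middle recurred beside the 3′ block. Gm26387 (SNORA66), in the ribosomal protein gene Rpl5, had 37.1% in common, with the longest stretch again up to the 3′ end.
The H/ACA box genes classed by symbol or sequence had at most 22.5% in common. Snora44 had 22.5%, Snora74a 19.4% and Snora62 15.4%, all in the 3′ part beyond the middle. Snora15 went the other way, with 22.1% in common at nucleotides 1 to 29, the 5′ end. Gm22581 (SNORA5) and Snora28 had peaks in all libraries but no common nucleotide. In all, 4 of the 9 genes had a common nucleotide (median common cover 0%), and 10 of the 17 by RefSeq class (median 7.25%).

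The boxes themselves were searched by sequence, which the rule for members did not use. The classes rest on gene names and sequence matches, so the share of a class with its boxes describes the annotation and not the peaks. The letters TGATGA within the first 20 nt and CTGA within the last 20 nt of the strand of the gene, searched in separate windows since they share the letters TGA, were both present in 285 of 381 C/D box genes (74.8%), in 22 of the 32 with a peak in all libraries and in 202 of the 246 with no peak (82.1%), most of them Snord115 or Snord116 copies. Of windows of the same lengths upstream of the genes, 0.0343% held both, and of reverse complements of C/D box genes, 0. The letters ACA 3 nt before the 3′ end were present in 12 of the 17 H/ACA box genes with a peak in all libraries (70.6%) and in 133 of 690 with no peak (19.3%). On the reverse complement 13 of 811 H/ACA box genes held them, in upstream windows the share was 2.36%, and 0.94% of snRNA genes held them. Without the SNORA17 copies, which make up most H/ACA box genes with no peak, the letters were present in 127 of 261 genes with no peak (48.7%), in 89 of 107 with a peak in any library (83.2%) and in the same 12 of 17 with a peak in all (70.6%).

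**Figure D3:**
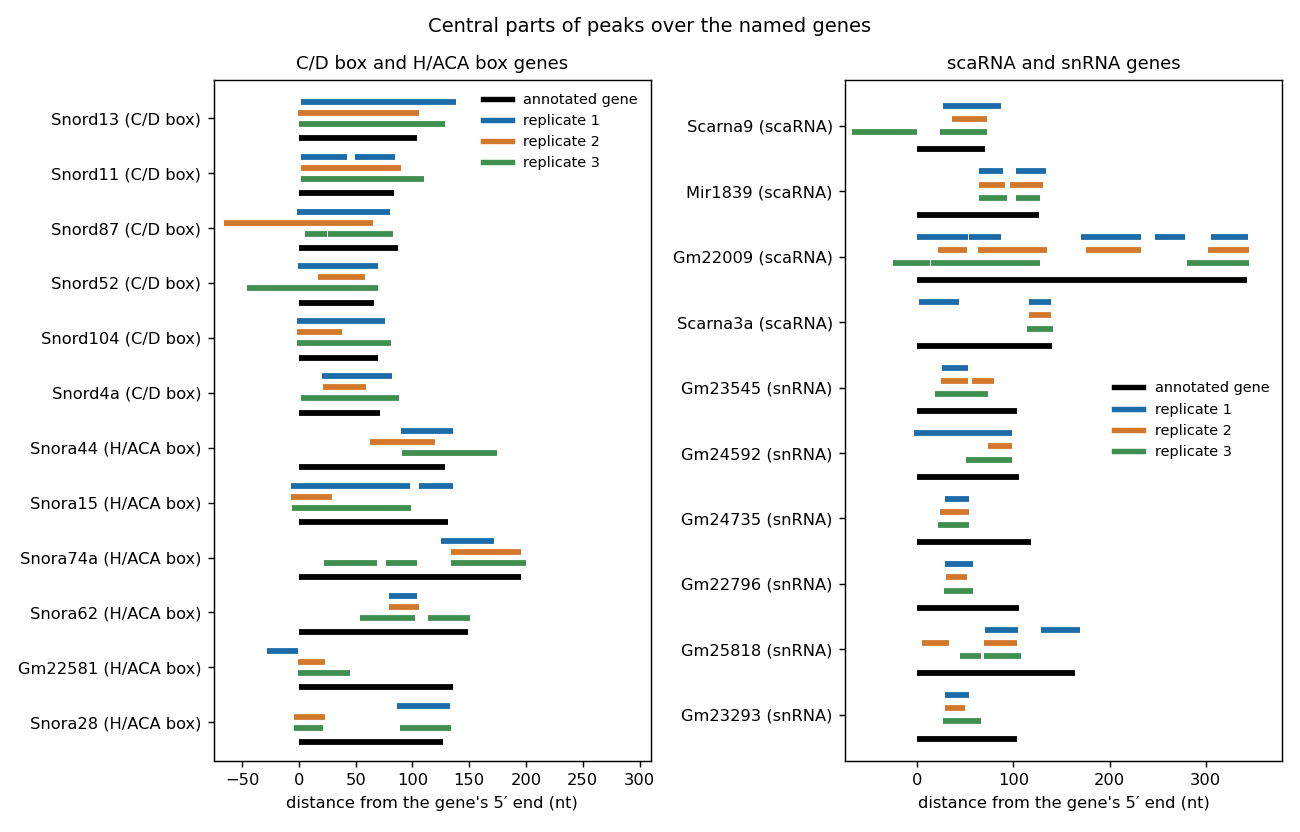
Coloured lines give the central parts of peaks in each replicate over the genes named by the rule, by distance from the 5′ end of the gene in nt, and black lines give the annotated gene. Lines of Snord13 span nearly the whole gene in each replicate, those of Snord52, Snord104 and Snord4a stop short of the 3′ end in replicate 2, and Mir1839 shows the same pair of blocks in each replicate.

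In scaRNA genes the edges varied between libraries from gene to gene. In the 9 with a peak in all libraries, the range over libraries was a median of 15 nt at the 3′ edge and 46 nt at the 5′ edge, against 22.5 and 37 nt in C/D box and 46 and 45 nt in H/ACA box genes. At the 3′ edge 3 of the 9 stayed within 5 nt, while Scarna2 ranged over 167 nt and Gm25395 over 80 nt. Central parts began a median of 112.5, 115.5 and 114.5 nt inside the gene in replicates 1, 2 and 3. Mir1839, a scaRNA gene in the non-coding host 2900076A07Rik, had 2 peaks in each library. The first block began 64 nt from the 5′ end in every library and ended at 89, 91 and 93 nt. The second ran from 103 to 134, 96 to 131 and 103 to 128 nt, past the 3′ end of the 127 nt gene. Scarna9, in Cep295, had 48.6% in common over its 3′ part, Gm22009 (SCARNA7), in Kpna4, had 26.8% in all and its longest common stretch at nucleotides 307 to 343, the 3′ end, and Scarna3a, in Cop1, had 16.4% at nucleotides 117 to 139. No gene of M21 carries the symbol Scarna15.

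snRNA genes were covered at 2 places. Over 1383 snRNA genes the number covered rose to 67, 54 and 67 at 46.2%, 33.8% and 36.2% of the length in replicates 1, 2 and 3, fell to 27, 21 and 39 at about 70% of the length (68.8%, 68.8% and 71.2%), and rose again to 59, 35 and 59 at 86.2%, 88.8% and 83.8%. On the opposite strand no position was covered in more than 6, 5 and 13 genes. The first maximum lay near the letters ACAGAGA, the part of U6 that pairs with the 5′ splice site, which 583 snRNA genes hold (42.2%; 8 hold them on the other strand) at a median of 40.6% of the length. In upstream windows the share with these letters was 2.23%, and 1.99% on their other strand. Of central parts over the 583 genes, 39 of 86, 31 of 64 and 39 of 77 held the letters whole. A central part over these genes covered a median of 25.2% of the gene.
Of the 17 snRNA genes with a peak in all libraries 9 had a common nucleotide, with a median common cover of 0.546%, and the named genes are those with the most. Central parts of Gm22796 ran from 29 to 58, 30 to 52 and 28 to 58 nt in replicates 1, 2 and 3. Those of Gm24735 all ended at 54 and began at 29, 24 and 21. Gm23293 had 20.2% in common at nucleotides 30 to 50 and Gm23545 had 26% at 27 to 53. Gm24592, also a U6 copy, differed: its common stretch was at nucleotides 75 to 98, in the second place. Gm25818, a U1 copy inside Creb5 with 8 near copies, had 20.7% in common, with its longest common stretch at nucleotides 71 to 104.

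By family, U6 had 709 genes, with 98, 76 and 91 with a peak in replicates 1, 2 and 3 and 8 in all. U1 had 123 genes, with 18, 11 and 20 with a peak and 3 in all. Of 29 U2 genes 3, 5 and 7 had a peak, with 1 in all, and of 11 U5 genes 4, 3 and 4, also with 1 in all. For U4 (11 genes) the counts were 0, 1 and 1, for U7 (45 genes) 2, 2 and 2, for U11 (5 genes) 1, 1 and 2, for U12 (4 genes) 0, 2 and 2, and for U6atac (16 genes) 0, 1 and 2, with none in all libraries. No gene was found under U4atac. In all, 13 of the 17 snRNA genes with a peak in all libraries belonged to U1, U2, U5 or U6 (76.5%), families that hold 872 of the 1383 snRNA genes (63.1%). Of 22 genes with a symbol that starts with Rnu, 4, 4 and 5 had a peak, 7 in any library (31.8%, against 23.1% of all genes), and none in all. Rnu6 had no peak at its own locus, but 43 genes, Rnu6 included, hold its sequence. Of these 9, 1 and 6 had a peak, among them Gm24693 in all libraries, with nucleotides 85 to 107 of 107 in common. Rnu1a1 had 1 peak in replicate 3. Rnu11 had 1, 0 and 2 peaks, Rnu12 0, 2 and 1, Rnu7 0, 1 and 1 and Rnu73b 1, 0 and 1, and each of the 2 Rnu3a entries, which are U3 snoRNA genes, had 1, 1 and 0.

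**Figure D4:**
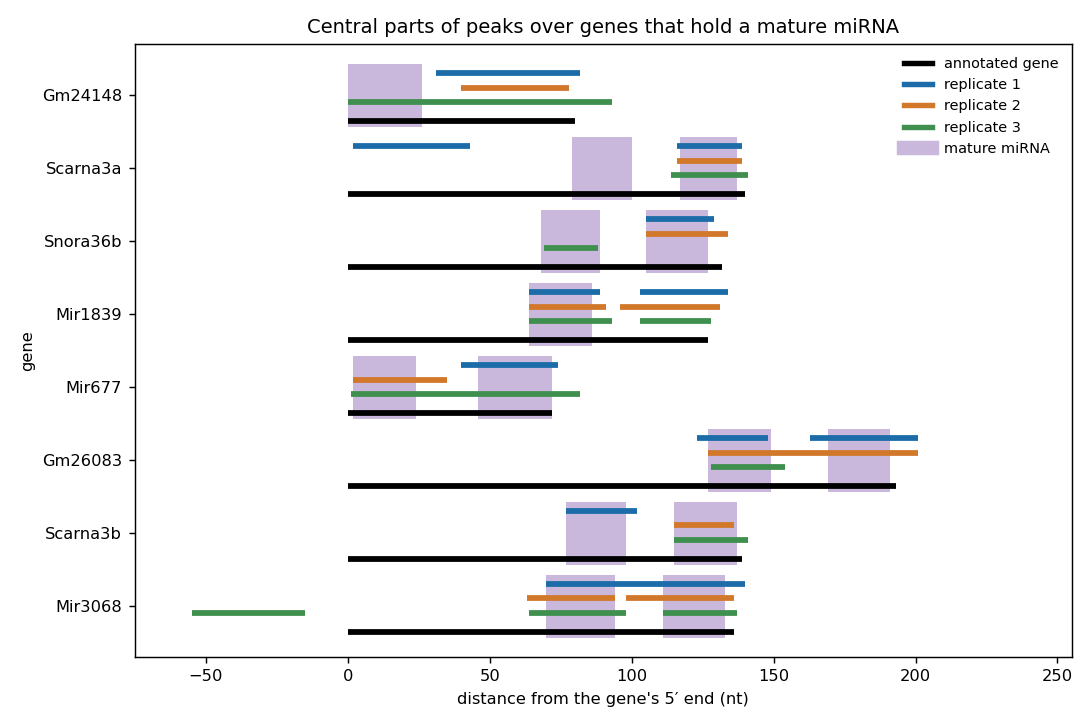
Coloured lines give the central parts of peaks in each replicate over the 8 genes that hold a mature miRNA and have a peak in all libraries, by distance from the 5′ end in nt; shaded boxes are the mature miRNAs. In Mir1839 the first block begins at the first nucleotide of the miRNA in each replicate.

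Genes that share their locus with an annotated miRNA gene had a peak far more often than the others. There were 24 such genes (at least 15 nt of overlap on the same strand), and 14, 12 and 14 of them had a peak in replicates 1, 2 and 3 (58.3%, 50% and 58.3%), against 12.4%, 8.64% and 12.4% of the other 2917 genes. In all libraries a peak was found for 10 of the 24, or 41.7% (95% Wilson interval 24.5 to 61.2%), and for 72 of the others, or 2.47% (1.97 to 3.10%). Among genes inside a host the shares were 43.5% and 5.95%, and among genes without a near copy 60% and 3.10%. The 10 genes were Gm24148, Scarna3a, Snora36b, Mir1839, Mir677, Gm26083, Scarna3b, Mir3068, Mir1949 and Snora74a.
RefSeq placed 14 mature miRNAs in 8 of these 10 genes, and central parts covered at least 15 nt of 5 of them in all libraries, 5 in 2, 3 in 1 and 1 in none. The 5 were mmu-miR-1839-5p, mmu-miR-1843b-3p, mmu-miR-6516-5p, mmu-miR-3068-5p and mmu-miR-3068-3p. Over mmu-miR-1839-5p the central part began 0 nt from the first nucleotide of the miRNA in each library and ended 3, 5 and 7 nt past its last. Over mmu-miR-1843b-3p it began at -1, -1 and -3 nt and ended 2, 2 and 4 nt past the miRNA. Central parts over both thus began at most 3 nt before the miRNA and ended past it in every library.
The paralogues Scarna3a and Scarna3b, which hold mmu-miR-1843b and mmu-miR-1843a, showed the same block in most libraries. The 3p miRNA was covered in replicates 1, 2 and 3 of Scarna3a and in replicates 2 and 3 of Scarna3b, where replicate 1 had the 5p miRNA in its place. In Snora36b mmu-miR-664-3p was covered from its first nucleotide in replicates 1 and 2, and 19 nt of mmu-miR-664-5p were covered in replicate 3. In Gm24148, inside Ncl, the annotated mmu-miR-3535 at the 5′ end was covered in 1 library, and the stretch common to all, 47.5% of the gene, began at nucleotide 41, outside it.
Of the 28 cases of a mature miRNA covered in a library, 18 had a central part that began within 1 nt of its first nucleotide, and 4 had one that ended within 1 nt of its last. Ends lay 2 to 7 nt past the miRNA in 17. At the other mature miRNAs of the genome, 68.3%, 58.6% and 55% of central parts that covered at least 15 nt began within 1 nt in replicates 1, 2 and 3 (246, 466 and 453 miRNAs). A peak over a miRNA does not tell the mature miRNA from the RNA it is cut from.

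Most of the genes with a peak in all libraries lay in introns or exons of a longer gene. Of the 82 genes with a peak in all libraries 68 (82.9%, 95% Wilson interval 73.4 to 89.5%) lay inside a host gene on the same strand, 52 in protein-coding and 16 in long non-coding RNA genes. Among genes with no peak 28% did. For snoRNA genes alone the shares were 96.6% of 58 and 34.7% of 1200, for snRNA genes 35.3% of 17 and 19.6% of 1031. Ribosomal protein genes hosted 12 of the 58 snoRNA genes, against 8 of the 1200 without a peak. Of the 82 genes 34 overlapped an exon of some transcript of the host, so a peak there may lie on host RNA.
The hosts themselves often had peaks. Another peak of 200 nt or less lay on an exon in all libraries in 33 of the 47 protein-coding hosts of the 82 genes (70.2%), where 38.2% of all protein-coding genes met that rule. Which part of the peaks over the snoRNA genes comes from host RNA was not tested.

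**Figure D5:**
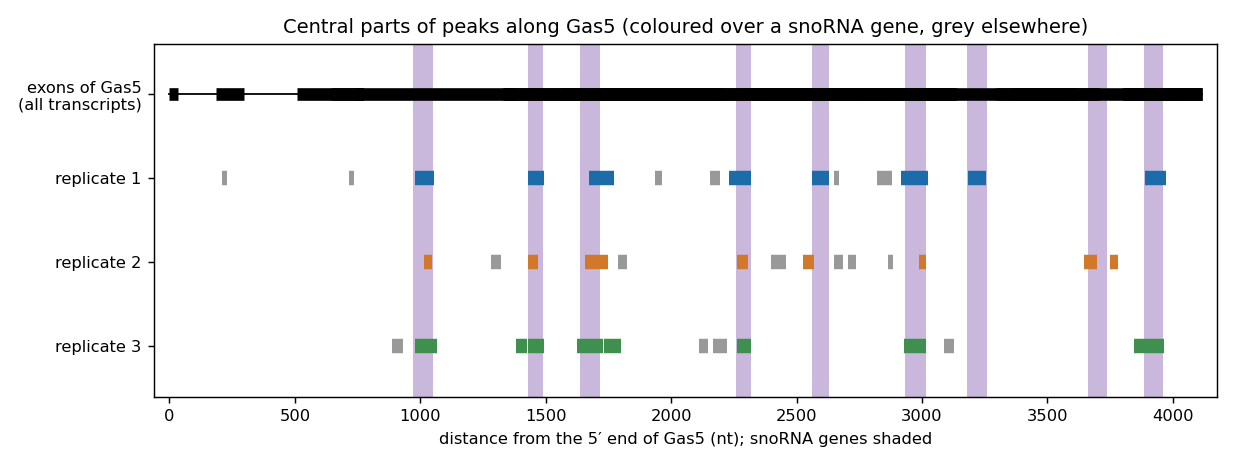
Coloured lines give central parts over the snoRNA genes of Gas5 in each replicate, grey lines those elsewhere in Gas5, by distance from its 5′ end in nt; shaded boxes are snoRNA genes and black boxes are exons of any transcript. Peaks recur on 5 of the snoRNA genes in all replicates.

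Gas5, a non-coding gene whose introns hold C/D box snoRNAs, was the host with the most genes with a peak in all libraries, while Snhg14 had more in any library (14 of 208 genes, 0 in all). Of the 10 annotated snoRNA genes of Gas5 9, 7 and 6 had a peak in replicates 1, 2 and 3, and each of the 10 had one in at least 1 library. The 5 with a peak in all libraries were Gm26224 (SNORD74), Gm22489 (SNORD75), Gm22357 (SNORD24), Gm23212 (SNORD44) and Mir5117. Common cover was 42.5%, 69.4%, 55.4%, 75% and 33.3% of the gene in that order. All 5 overlap an exon of some transcript of Gas5. Gas5 also held 6, 6 and 4 peaks away from the snoRNA genes, against 9, 8 and 8 on them. In Gm22489 a central part began 0 nt from the 5′ end of the snoRNA in each replicate. In replicate 3 a further one ran from -48 to -3 nt, before the gene.
Snord78 had a peak in replicates 1 and 2, Gm25789 (SNORD81) in replicates 1 and 3, the overlapping Snord80 entries in replicate 1 and Snord47 in replicate 2.

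Taf1d had 3 of 8 snoRNA genes with a peak in all libraries, the 2 H/ACA box genes above and Gm24357. In replicate 2 the central part over Gm24357 ran from 76 to 107 nt, beyond the end of the 74 nt gene, so that only padding overlapped it. Of the 82 genes 5 had such a library. Snhg12 (Snora44 and Snord99), Nop56 (Snord110 and Snord57), Nop58 (Gm26287 and Snord11) and Gm28285 (Mir1949 and Snora74a) had 2 each. In Nop56, Snord57 had 43.1% in common and Snord110 10.3%, Gm23650 (SNORD56) had a peak in replicates 1 and 2, Gm24451 (SNORA51) in replicate 3 and Gm23187 (SNORD86) in none. Snhg1 had 8 snoRNA genes and none had a peak in all libraries: Gm24452 and Gm24453 (SNORD27 and SNORD28) had a peak in replicates 1 and 2, Gm22680 (SNORD30) in 1 and 3, and Gm25855 (SNORD25) in none. Snord37, in the translation factor gene Eef2, had 1, 2 and 0 peaks.

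Peak width was part of the rule, and a wide peak reaches the required overlap more easily, so widths are given as a description with no test. Median width was 93, 89 and 96 nt for members in replicates 1, 2 and 3, and 84, 87 and 91 nt for other peaks of 200 nt or less centred in a gene. The difference was 5.33 ± 3.51 nt (n = 3), and 1 ± 6 nt against peaks in exons. Of the members 75.4%, 64.6% and 78.2% were 86 to 200 nt wide, against 39.5%, 54.8% and 64.2% of the other peaks in genes.

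The score that the authors gave each peak differed at these genes. Its meaning is not given in the sources used here, and it was 60, the highest value, for most peaks. It was below 60 in 75 of 422, 12 of 294 and 53 of 468 members (17.8%, 4.08% and 11.3%) in replicates 1, 2 and 3, and in 0.908%, 0.451% and 0.213% of all other peaks of 200 nt or less. The share was higher for members in each of the 3 libraries. Among peaks of 86 to 200 nt alone it was 22.6%, 6.32% and 14.2% for members and 1.87%, 0.83% and 0.37% for others.
None of the 60, 38 and 77 peaks on the opposite strand had a score below 60, which at these numbers allows a share of up to 5%, 7.89% and 3.9% (3 counts). Over miRNA genes 44.5%, 33.6% and 32.6% of peaks had one. By class the share was 36.8%, 1.39% and 32.5% for C/D box genes, 8.97%, 13.3% and 0.971% for H/ACA box genes, 25.9%, 13% and 15.4% for scaRNA genes and 7.47%, 0% and 3.72% for snRNA genes. Replicate 2 thus had 1 such peak of 72 over C/D box genes. For genes with a near copy the share was 9.21%, 4.35% and 3.26%, below that of members as a whole in replicates 1 and 3.

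The protein partners of these RNAs were counted by peaks on exons in all libraries, which 38.2% of protein-coding genes had. Of C/D box proteins Nop56 and Nop58 had them, with 8, 10 and 17 and with 7, 12 and 27 peaks, while the methyltransferase gene Fbl had 2, 0 and 3 and Snu13 none. Of 6 H/ACA box genes 5 had them, among them the pseudouridine synthase gene Dkc1 (8, 6 and 8 peaks). Of 7 Sm protein genes 5 had them, of 3 U1 protein genes 1 (Snrnp70), of 6 Cajal body and assembly genes 4, and of 5 small RNA processing genes 4, with 34, 105 and 79 peaks on Ago2 itself. Nop56 and Nop58 also hold the snoRNA genes named above, some of which overlap exons.

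As a check of the labelled cell type, 7 of 10 neuronal genes (Tubb3, Stmn2, Map2, Gap43, Uchl1, Elavl4 and Dpysl3) had exon peaks in all libraries. So did 1 of 4 myeloid markers (Ptprc) and 1 of 3 astrocyte markers (Aqp4), and none of 3 endothelial and 3 hepatocyte markers. A peak shows RNA bound to Ago2 and gives no amount. The part of other cell types in the results was not tested.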

How the data were processed

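Ago2 HITS‐clip of N2A cells gave 3 samples of 1 group. The authors deposited 1 table of peaks, called per sample, with start and stop positions and a score per peak; the unit of this deposited score is not given. Per the submitters' processing notes, FastQC, cutadapt, STAR and mm10 were used; the peak caller, its threshold and the handling of reads with several positions are not given in the sources used here. Starts reach -30, so peaks were read as counted from 0 and padded by 30 nt on each side.

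Peaks on the 21 nuclear chromosomes were overlapped with GENCODE M21 genes (at least 15 nt, same strand). Classes came from symbols or blastn (BLAST 2.17.0, at least 80% identity over 80% of the length), and in an added alternative from RefSeq names of genes with at least 50% reciprocal overlap, found for 73.9% of genes. A host was a protein-coding or long non-coding gene holding the small RNA gene on the same strand. Sequences came from GRCm38.p6 and RefSeq. Named genes were the 6 C/D box, 6 H/ACA box, 4 scaRNA and 6 snRNA genes with a peak in all libraries, no identical copy and the largest share of length in central parts of all libraries, plus fixed families and hosts; other genes were named after their values were seen. The members, lists and tests were chosen with earlier results of these data known. The test of peak centres was an exact sign-flip permutation over libraries, two-sided; the same test planned for width is not reported, since the rule used width. Overlap and position code was tested on simulated data. Comparisons of miRNA loci, the letters of U6 and the score were chosen after values were seen. Alternatives were the overlap, trimming, width, number of libraries, identical copies, host type and each replicate left out. No further value columns were present (0). A marker list and a gene sequence are not reported here. Scripts ran in Python 3.11.15 with matplotlib 3.10.9, scipy 1.17.1, pandas 2.3.3 and numpy 2.4.6.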

Additional observations from a re-analysis of the deposited data

How the results depend on the processing

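Of 76 alternatives to 9 results, 62 stayed within the limits set for a change (1.5 times a count, 1 SD or the interval of a share, or the direction of a difference), 14 moved and none reversed. The number of genes with a peak in all libraries was 256 with at least 2 libraries required and lay between 122 (without replicate 1) and 174 (without replicate 2) with 1 replicate omitted. The share of C/D box genes was 22.2% with RefSeq classes and 39.3% with identical sequences counted as 1, that of H/ACA box genes 10.3% with peaks of any width, that of snRNA genes 7.16% with peaks of 86 to 200 nt. The share of scaRNA genes, equal in all libraries, was 27.7% with trimmed peaks, 31.4% with any width, 20.1% with 86 to 200 nt and 28.8% with identical sequences counted as 1. The share of genes inside a host was 63.4% for protein-coding hosts only, 53.8% for genes with a peak in at least 1 library and 91.1% with peaks of 86 to 200 nt. The cause was not tested where the looser or stricter rule does not itself set it. The difference in centre ran from -0.105 to -0.0775 with each replicate left out (exact sign-flip p = 0.5, the smallest for 2 libraries), and that in width, given with no test, from 3.5 to 7 nt. No pairing between conditions was possible because all libraries belong to the same group, and the test of centres compared classes within each library. Since depth is not known, the absence of a peak says nothing about absence of binding.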
